A study of Mus musculus with 13 samples.

Results

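Ppargc1a encodes PGC-1α, a transcriptional coactivator that docks on nuclear receptors and other factors and switches on gluconeogenic, fatty acid oxidation and mitochondrial genes. In liver its transcription is low in the fed state and is induced in fasting by glucagon and cAMP through CREB and CRTC2, with glucocorticoids as a further signal. The glucocorticoid receptor (GR) is a ligand-activated transcription factor, and NCOR1 is a corepressor scaffold that carries the histone deacetylase HDAC3 to nuclear receptors. The binding of both proteins at Ppargc1a is described here from ChIP-seq peak lists. A peak belonged to the locus if its centre lay on chromosome 5 (mm10) within 50 kb of the annotated gene body, that is, from 51404249 to 52165853. That window held 101 of the 217044 peaks in 7 lists.

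The lists came from livers of male mice that carried a control construct (labelled GFP, here control) or Cre (labelled CRE, here dKO as in the labels, a knockout that includes NCOR1). All animals were injected intraperitoneally at zeitgeber time (ZT) 8 with vehicle, named saline in the design text, or with 1 mg/kg dexamethasone, a synthetic glucocorticoid, and livers were taken at ZT 10, 2 h later. How Cre was delivered, which cells it reached and the age and strain of the mice are not given in the sources used here. GR was profiled in both genotypes under both treatments, with 2 libraries for each of the 4 groups. NCOR1 was profiled in control dexamethasone with 2 libraries, and in control vehicle and dKO vehicle with 1 library each.

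Libraries of a group had been pooled before peaks were called, so no value below has a spread between animals and no test between conditions was possible. Tag totals ranged from 27.5 M to 31.9 M in the GR lists and from 17.5 M to 36.9 M in the NCOR1 lists (M, mega). Values are the authors' normalized tag counts, scaled to 10 M tags per list. Ratios carry exact 95% intervals that cover counting error in these pooled lists only, and a ratio of at least 1.5 either way was called higher or lower. A missing peak means that none passed the caller's thresholds, and binding below them cannot be told from no binding. GR peaks of control dexamethasone lay within 50 kb of 9 of 9 hepatocyte genes, 3 of 3 endothelial genes, 3 of 3 neuronal genes and 1 of 4 Kupffer cell genes, and of 79.4% of all protein-coding genes, so these counts do not check the tissue label. The strongest sites had 36.6 (Ttr) to 341.2 (Hnf4a) at the hepatocyte genes, 27.1 (Clec4g) to 149.4 (Stab2) at the endothelial genes, 7.66 (Snap25) to 13.0 (Syn1) at the neuronal genes and 12.2 at Clec4f, the Kupffer cell gene.

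The mouse gene lies on the minus strand. RefSeq's promoter table gives its start at position 51567725, and the annotated body reaches 113 kb from there to the 3′ end and 548 kb upstream, where other annotated transcripts begin. The sequence just before that start is shown because it is the classical cAMP-responsive promoter of the gene and holds none of the peaks. It covers chr5:51567726-51567975 on the minus strand (RefSeq, GRCm38.p6, the assembly that mm10 names), and capitals mark a match to the cAMP response element half-site.
Ppargc1a promoter: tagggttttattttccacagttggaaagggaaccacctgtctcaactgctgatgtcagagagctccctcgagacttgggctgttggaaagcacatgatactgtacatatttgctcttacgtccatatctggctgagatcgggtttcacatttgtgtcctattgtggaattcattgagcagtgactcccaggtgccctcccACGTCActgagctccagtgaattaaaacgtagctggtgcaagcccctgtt
The half-site TGACGT, which reads as ACGTCA when found on the opposite strand, occurred once in these 250 bases, with its first base 50 bases before the start, and was held by 6.47% of 32851 promoter stretches of the same length. The GR half-site AGAACA, searched on both strands, had 0 matches here and was held by 16.1% of those stretches. A match is a description of letters only, and a lack of one draws nothing about either factor. Peaks of any of the 7 lists that overlapped the 300-base promoter record numbered 0. The nearest GR peaks lay 14.7 kb away inside the gene and 23.8 kb away upstream, and the nearest NCOR1 peaks lay 14.8 and 23.6 kb away.

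Joining peaks that overlapped by at least 1 bp gave 34 sites, numbered from the 3′ flank (site 1) to the upstream flank (site 34). GR had a peak at 30 of them and NCOR1 at 20, with both at 16, GR alone at 14 and NCOR1 alone at 4. Between the RefSeq start and the 3′ end lay 11 sites, in the body upstream of that start 15, beyond the 3′ end 4 and beyond the upstream end 4. GR sites were denser in the 113 kb of the shorter transcript (10 sites, 88.1 per Mb) than in the 548 kb of upstream body (13 sites, 23.7 per Mb). Sites 32 and 33 also lay in the lncRNA gene Gm40302, and site 34 at the edge of Dhx15, a helicase gene, so their assignment to Ppargc1a is by distance only. Which sites are exonic or intronic was not analysed here.

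**Figure D1:**
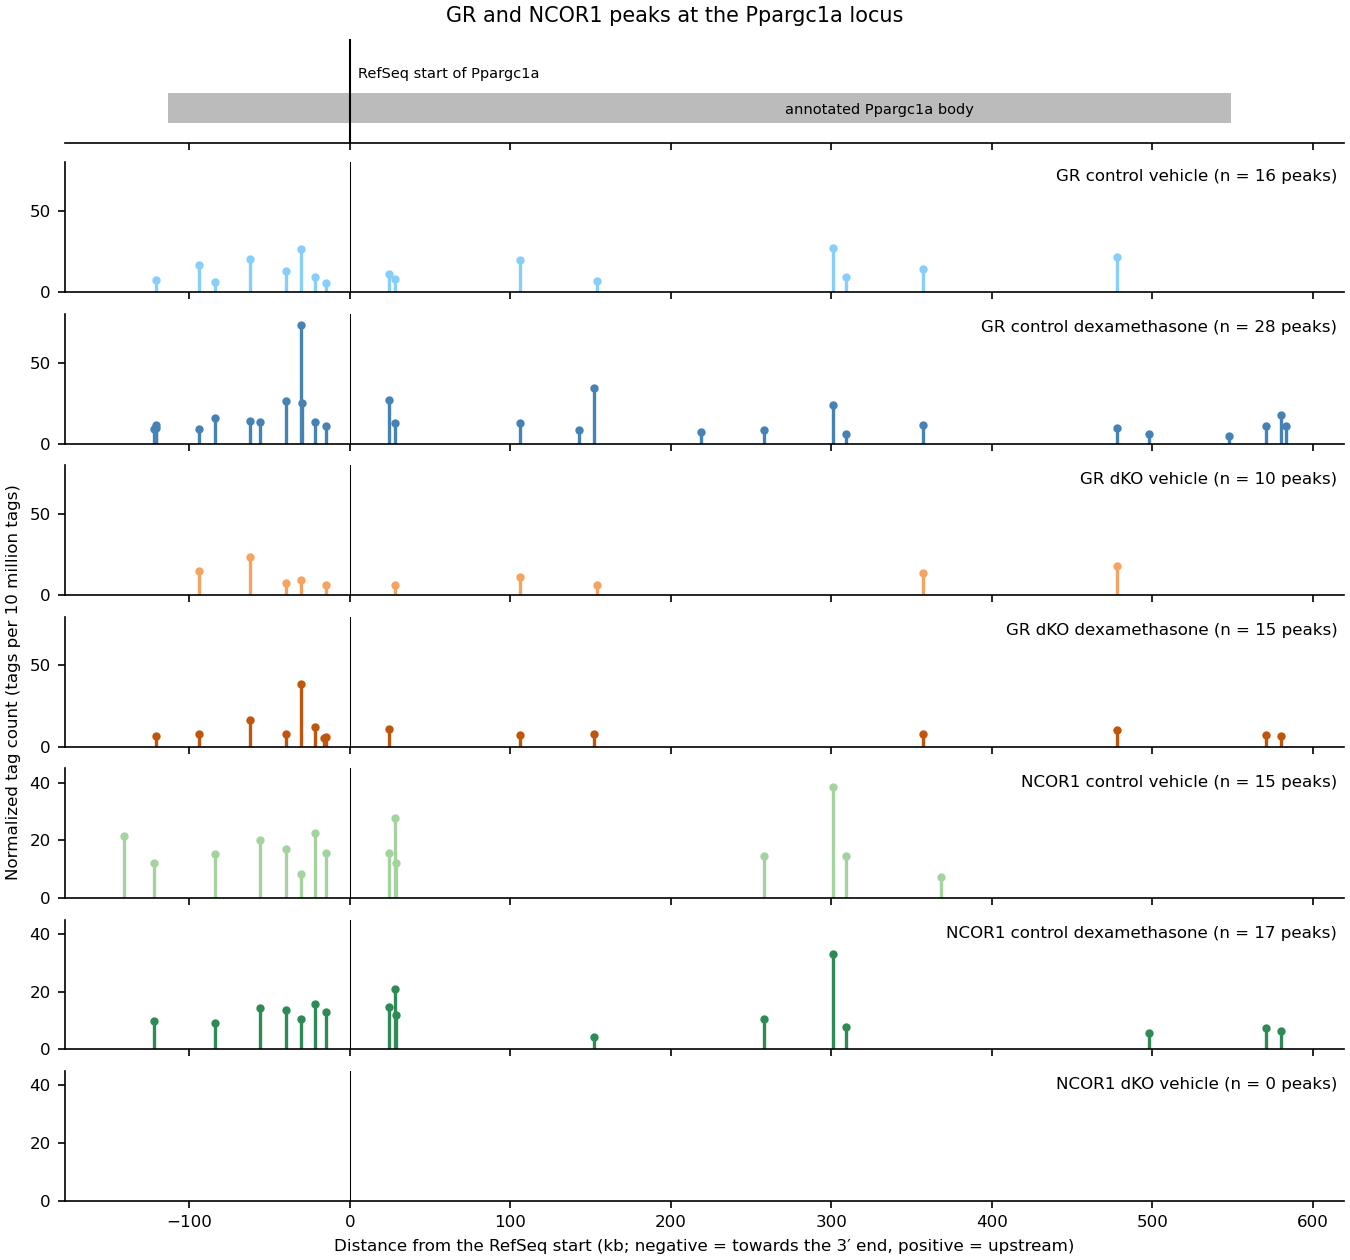
Peaks of each list by distance from the RefSeq start in kb (horizontal axis) and normalized tag count (vertical axis, tags per 10 M tags; scale to 80 for GR and to 45 for NCOR1). The largest GR peak, 30.4 kb inside the gene, reached 73.3 in control dexamethasone, and the NCOR1 dKO vehicle list had 0 peaks.

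GR peaks at the locus numbered 16 (vehicle) and 28 (dexamethasone) in control liver, and 10 and 15 in dKO liver. Of 21883 protein-coding genes, counted by the same rule, 14 others had at least as many peaks as Ppargc1a in control dexamethasone and 45 in control vehicle. Per Mb of window, Ppargc1a had 36.8 peaks in control dexamethasone against a median of 19.8 over all genes, and 27.8% of genes were denser. Among 274 genes with bodies of 400 to 900 kb the median was 6 peaks, and 9 others had at least as many. NCOR1 peaks numbered 15 in control vehicle (19.7 per Mb against a median of 19.9) and 17 in control dexamethasone (22.3 against 19.6).

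In control liver the drug went with higher GR at one set of sites and lower GR at another. Site 10 (chromosome 5, 51537167 to 51537367), the strongest of the locus and 30.4 kb inside the gene, had tag counts of 26.9 (vehicle) and 73.3 (dexamethasone) in control liver and of 9.63 and 38.7 in dKO liver. It was high in both dexamethasone lists and lowest in dKO vehicle, and it ranked 952nd of 40853 peaks in control dexamethasone. Dexamethasone over vehicle was 2.72 (2.08 to 3.59) in control at this site. Site 9 (51527879 to 51528079), 39.8 kb inside the gene, had 12.9 and 26.3 in control vehicle and dexamethasone, a ratio of 2.04 (1.37 to 3.17). Site 16 (51591801 to 51592001), 24.1 kb upstream of the RefSeq start, had 11.3 and 27.0, a ratio of 2.39 (1.56 to 3.74).

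Site 6, 83.8 kb inside the gene, had 6.19 in control vehicle and 15.8 in control dexamethasone, a ratio of 2.55 (1.43 to 4.70). Sites 17 and 3 were called higher too, at 1.56 (0.911 to 2.80) and 1.51 (0.870 to 2.85), with intervals that include 1. Thus 6 of 14 matched sites were called higher, against 25.1% of all 24576 matched peaks of these lists. The median ratio over the locus was 1.11 and over all matched peaks 1.05 (log2 0.07). Relative to that median 4 of 14 were higher (22.2% of all) and 5 lower (19.3% of all), so the balance of calls depended on the scaling.

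At the other set of sites GR was lower after the drug. Site 29 (52045754 to 52045954), 478 kb upstream of the RefSeq start, had 21.8 in control vehicle and 9.82 in control dexamethasone, a ratio of 0.450 (0.274 to 0.70), and only 0.981% of all matched peaks had a lower one. Site 5 (51473758 to 51473958), 93.9 kb inside the gene, had 16.7 and 9.32, a ratio of 0.558 (0.335 to 0.910). Site 19 (51673871 to 51674071), 106 kb upstream, had 19.7 and 12.7, a ratio of 0.645 (0.414 to 0.993). With site 26 (0.638, 0.316 to 1.15), 4 of 14 were called lower, against 15.9% of all matched peaks. Sites 7 (0.696) and 27 (0.796) were below 1 without reaching the call.

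Of the sites called lower, 29, 19 and 5 were among the strongest of the locus in vehicle, and site 26 (9.65) was not. With site 7, which was not called, these were the next strongest control vehicle peaks there after sites 25 and 10. Sites 29, 7, 19 and 5 led the dKO vehicle list with site 27. The vehicle count is the divisor of the ratio, so the count and the ratio are not independent.

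Peaks called after dexamethasone and not after vehicle numbered 14 of 28, against 39.8% of all control dexamethasone peaks. The strongest was site 21 (51719725 to 51719925), 152 kb upstream of the RefSeq start, at 34.1 in control dexamethasone and 7.68 in dKO dexamethasone, with no peak in either vehicle list. Its tags stood 32.8-fold over the surrounding 10 kb. Site 12 (25) lay 586 bp from the centre of site 10, stood only 6.11-fold over the surrounding 10 kb and had a peak in no other list. Site 33 had 17.6, site 8 had 13.7, and the other 10 ranged from 4.66 to 11.2. The median of the 14 was 10.1, against 8.99 for all peaks of this kind.

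Vehicle peaks without a dexamethasone peak numbered 2 of 16 (18.1% of all control vehicle peaks). One was site 22, at 6.92 in control vehicle and 6.26 in dKO vehicle. The other lay at site 15, 15 kb inside the gene, where the dexamethasone peak began 9 bp beyond the end of the vehicle peak, so both states had GR within the site and it enters the dexamethasone-only count as well.

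**Figure D2:**
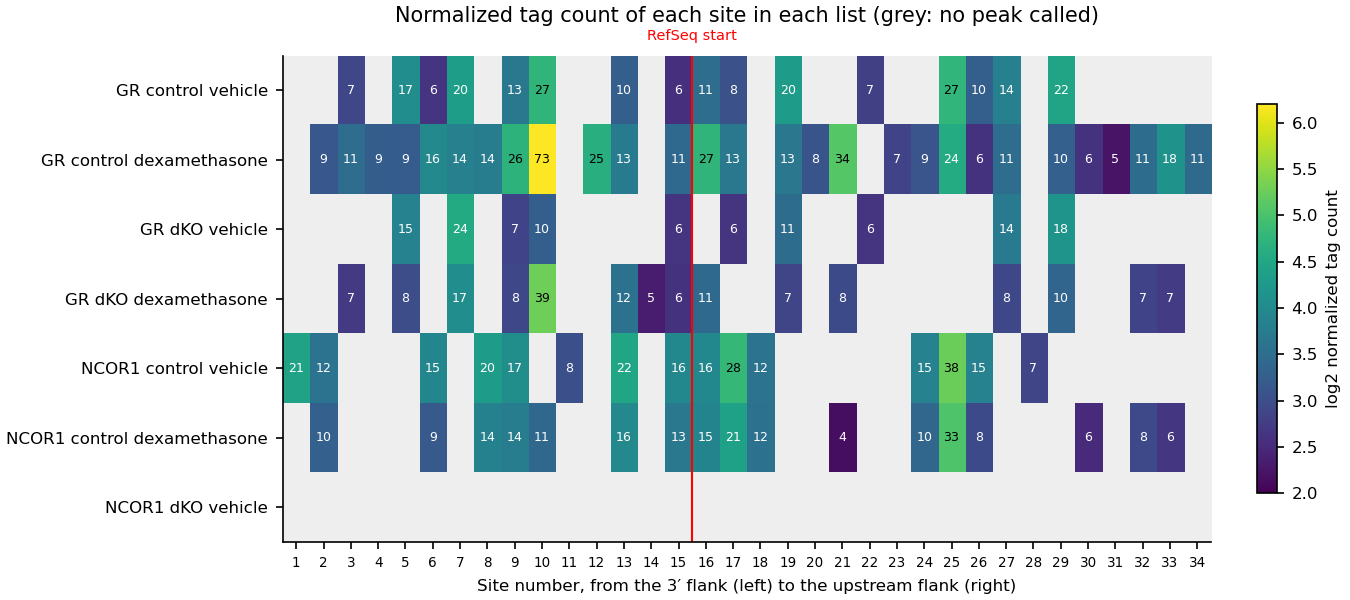
Normalized tag count of each of the 34 sites (columns, from the 3′ flank to the upstream flank) in each of the 7 lists (rows), with colour for its log2 and grey where no peak was called. Sites 5, 7, 19, 27 and 29 had GR in all 4 GR lists and NCOR1 in none, with higher counts in vehicle than in dexamethasone in both genotypes.

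Matched GR sites with NCOR1 had a higher median drug ratio than those without, with exceptions on both sides. Counting an NCOR1 peak in either control list, 8 GR peaks matched between control vehicle and dexamethasone overlapped one and 6 did not. The 8 had a median ratio of 1.79, with 5 called higher and 1 lower, where 34.2% and 3.10% of all 14472 such sites were called. The 6 had a median of 0.670, with 3 called lower and 1 higher, where 34.1% and 11.9% of all 10104 such sites were called. Over all sites the medians were 1.28 with NCOR1 and 0.745 without, so the direction of the split was that of the whole lists. Sites 25 (0.889) and 26 (0.638) were below 1 with NCOR1, and site 3 (1.51) was called higher without it. Peaks called after dexamethasone alone made up 8 of 16 GR peaks with NCOR1 (34.3% of all such peaks) and 6 of 12 without it (46.3%). Counted by either NCOR1 list, these were the same share at the locus. The split was chosen after the values were seen.

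The class with NCOR1 includes peaks of the dexamethasone NCOR1 list, so it is not independent of the drug. Site 10 belongs to it only through such a peak. With the vehicle NCOR1 list alone, 7 matched sites with NCOR1 had a median ratio of 1.56, with 4 called higher (30.6% of all such sites) and 1 lower (3.31%). The 7 without it had a median of 0.696, with 2 higher (18.9%) and 3 lower (29.8%). Peaks called after dexamethasone alone then made up 3 of 10 GR peaks with NCOR1 and 11 of 18 without it. Their equal share by either list thus depended on the dexamethasone NCOR1 peaks. The same shares over all peaks were not computed for the vehicle list alone.

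**Figure D3:**
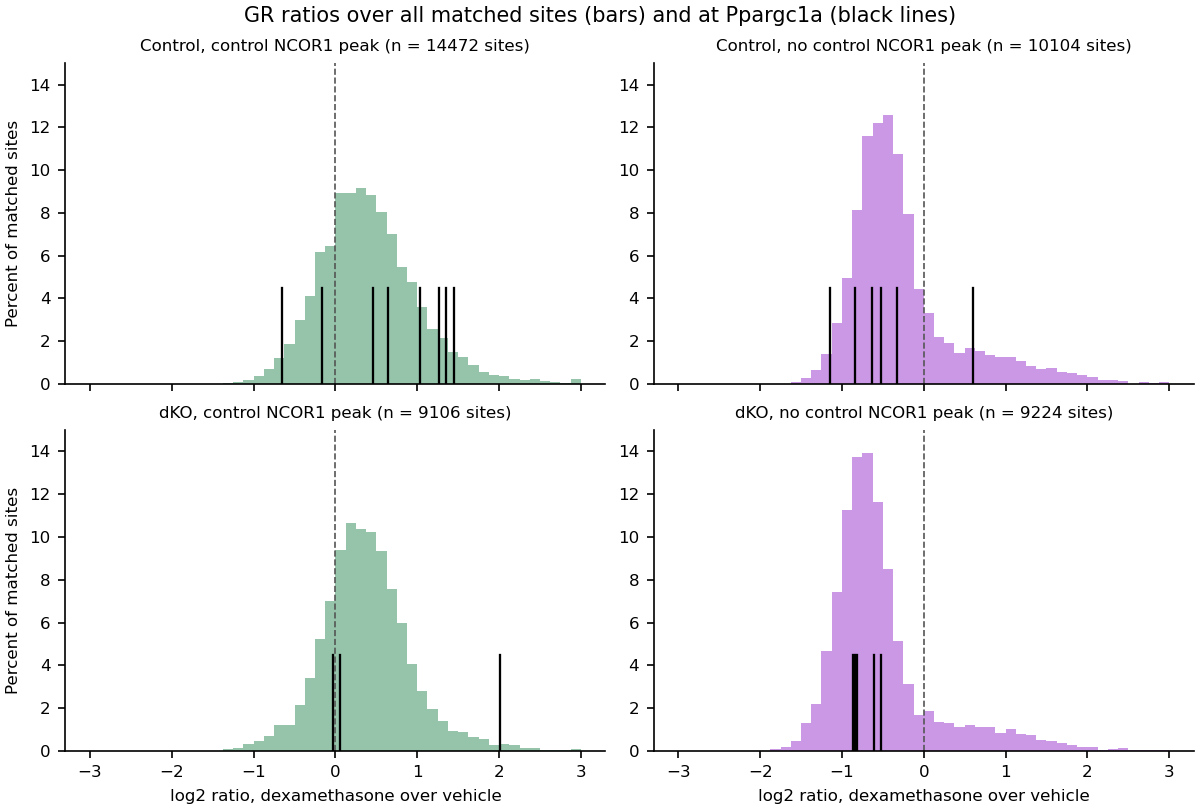
Distribution of log2 GR ratios, dexamethasone over vehicle (horizontal axis), over all matched sites (bars, percent of sites) and at Ppargc1a (black lines) in control (top) and dKO (bottom), for sites with (left) and without (right) an NCOR1 peak in either control list. Without NCOR1, 5 of 6 control and 5 of 5 dKO sites of the locus lay below 0, against 78.0% and 85.4% of all such sites.

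In dKO liver site 10 was again the strongest site after the drug. Its 9.63 in dKO vehicle and 38.7 in dKO dexamethasone gave a ratio of 4.02 (2.67 to 6.18), above 99.2% of all matched peaks. It was the only matched site of the locus called higher (1 of 8; 19.5% of all matched peaks, or 24.1% when ratios were taken relative to the median). Site 9 had 7.22 and 7.52, a ratio of 1.04 (0.572 to 1.99), and site 15 had 6.26 and 6.11, a ratio of 0.976. Whether the ratio at site 9 or site 10 differed between the genotypes was not tested.

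The 5 matched sites without NCOR1 had lower counts after the drug in dKO liver as well. Site 7 had 23.8 and 16.6, site 29 had 18.0 and 10.3, site 5 had 14.6 and 7.99, site 27 had 13.5 and 7.52, and site 19 had 11.2 and 7.36. Their ratios ran from 0.547 to 0.697, and 4 of 5 were called lower, where 59.2% of all 9224 matched NCOR1-free sites were. Sites 3 (6.58) and 14 (5.01), also without NCOR1, had a dKO peak only after the drug. All matched peaks of these lists had a median ratio of 0.929 (log2 -0.11). As deposited, 4 of 8 sites of the locus were called lower (31.4% of all), and 3 of 8 relative to that median (25.2%). Of the 3 matched sites with control NCOR1 peaks 1 was called higher, site 10, where 30.7% of all such sites were. With the vehicle NCOR1 list alone, 0 of 2 with NCOR1 were called higher (27.7% of all such sites). Without it 1 of 6 was higher (13.0%), again site 10, and 4 were lower (53.5%).

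Dexamethasone peaks without a dKO vehicle peak numbered 7 of 15 (35.4% of all), at sites 3, 13, 14, 16, 21, 32 and 33. The strongest were site 13 (11.8) and site 16 (10.8). Both had a vehicle peak in control liver, so in dKO they were called only after the drug. Vehicle peaks without a dexamethasone peak were 2 of 10 (21.5% of all), at sites 17 and 22, with 6.26 each.

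**Figure D4:**
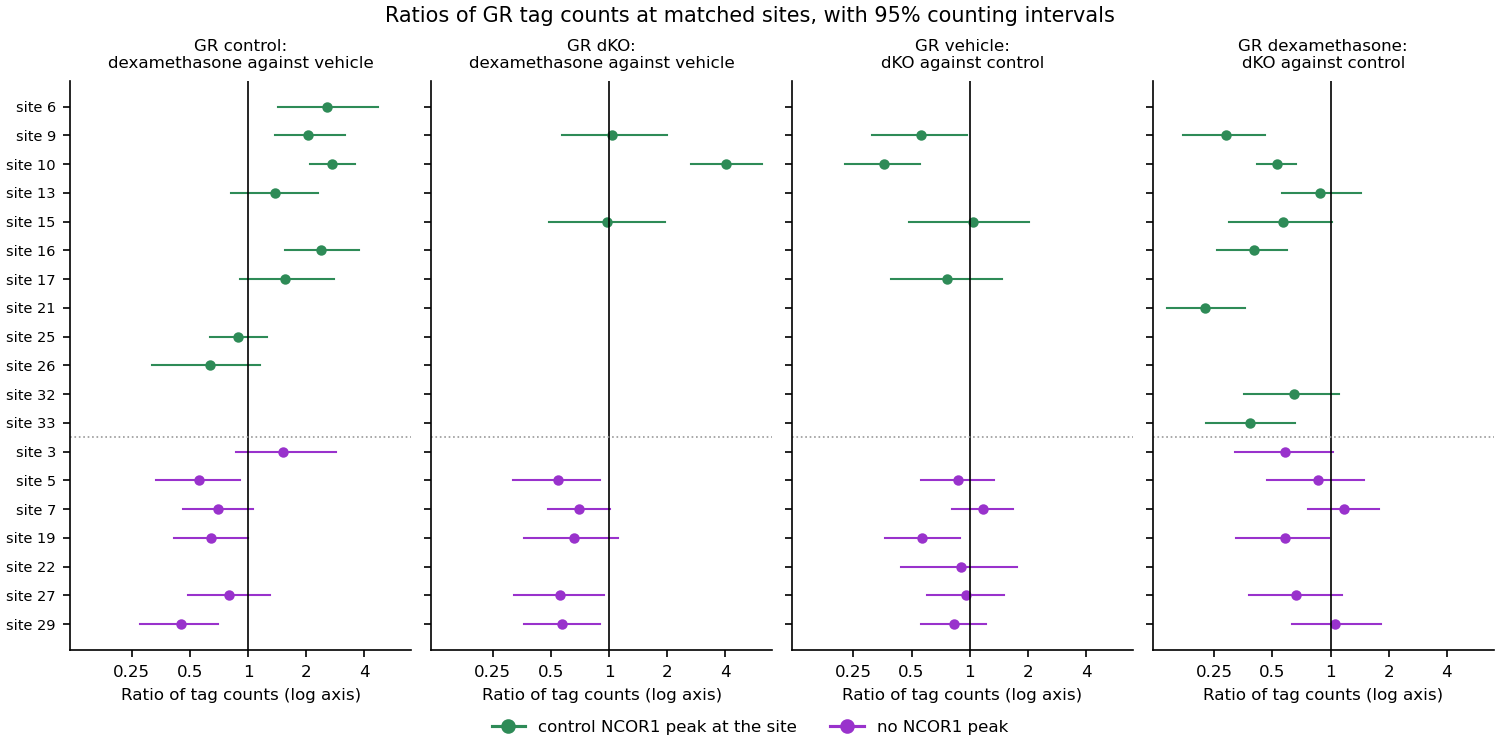
Ratio of GR tag counts at each matched site (points, log axis) with its exact 95% counting interval (lines) in 4 comparisons of pooled lists; green sites have an NCOR1 peak in either control list and purple sites have none. Site 10 stood at 2.72 and 4.02 for the drug in control and dKO, and at 0.358 and 0.528 for dKO over control in vehicle and dexamethasone.

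Under vehicle, GR was called lower in dKO than in control at 3 matched sites. Of these, site 9 alone had an NCOR1 peak in control vehicle. Ratios were below 1 at 3 of 4 matched sites with NCOR1 in either control list (84.2% of all such sites). Without NCOR1 they were below 1 at 5 of 6 (52.4%). Site 10 had 26.9 in control and 9.63 in dKO, a ratio of 0.358 (0.226 to 0.553), and 1.49% of all matched peaks had a lower one. Site 9 had 12.9 and 7.22, a ratio of 0.560 (0.310 to 0.972). Among sites with no NCOR1 peak in any list, site 19 had 19.7 and 11.2, a ratio of 0.569 (0.363 to 0.891).

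The other NCOR1-free sites were near equality, from 0.826 (0.562 to 1.21) at site 29 to 1.17 (0.813 to 1.68) at site 7. Called lower were 3 of 10 matched sites (22.3% of all) and higher 0 (1.66% of all). All matched peaks had a median ratio of 0.875 (log2 -0.19), and relative to it 3 of 10 were again lower (13.9% of all). By either NCOR1 list, 2 of 4 sites with NCOR1 were lower (39.9% of all such sites) and 1 of 6 without it (4.84%). By the vehicle list alone, 1 of 3 (41.4%) and 2 of 7 (6.43%) were, since site 10 changes class.

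Peaks of control vehicle liver with no dKO peak numbered 6 of 16 (35.1% of all), led by site 25 (51868223 to 51868423), 301 kb upstream of the RefSeq start, with 27.1. That was the strongest control vehicle GR peak of the locus, and no dKO list held a GR peak there. The others were site 16 (11.3), sites 13 and 26 (9.65 each), site 3 (7.46) and site 6 (6.19). By either NCOR1 list, 5 of 9 control peaks with NCOR1 had no dKO peak (46.5% of all such peaks) and 1 of 7 without it (17.7%). By the vehicle list alone, these were 5 of 8 (45.9%) and 1 of 8 (22.2%). The dKO vehicle list had 0 peaks of its own at the locus, where 16.6% of all its peaks had no control peak.

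Under dexamethasone the lower counts in dKO spread over most of the locus. Site 21 had 34.1 in control and 7.68 in dKO, a ratio of 0.225 (0.143 to 0.360), and 0.324% of all matched peaks had a lower one. Site 9 had 26.3 and 7.52, a ratio of 0.286 (0.173 to 0.456), site 33 had 17.6 and 6.74 (0.383, 0.226 to 0.653), and site 16 had 27.0 and 10.8 (0.400, 0.257 to 0.596). Site 10 had 73.3 and 38.7, a ratio of 0.528 (0.418 to 0.659).

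Sites 7 (1.17, 0.761 to 1.78) and 29 (1.05, 0.630 to 1.83) had ratios above 1. Called lower were 10 of 14 matched sites (36.5% of all) and higher 0 (1.46% of all). The median over all matched peaks was itself 0.746 (log2 -0.42). Relative to it 4 of 14 were lower (11.8% of all), at sites 21, 9, 33 and 16, and 1 was higher (8.81% of all), at site 7. By either NCOR1 list, 7 of 8 matched sites with NCOR1 were called lower on the deposited scale (48.5% of all such sites) and 3 of 6 without it (23.8%). By the vehicle list alone, 3 of 4 (48.1%) and 7 of 10 (28.0%) were, since sites 10, 21, 32 and 33 change class.

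Control dexamethasone peaks with no dKO peak numbered 14 of 28 (39.5% of all). They included sites 12 (25), 25 (24.1), 6 (15.8), 8 (13.7) and 17 (12.8). By either NCOR1 list, 8 of 16 with NCOR1 had no dKO peak (41.9% of all such peaks), and without it 6 of 12 (36.6%). With the vehicle NCOR1 list alone, these were 7 of 10 (40.3%) and 7 of 18 (38.8%), so the equal shares depended on the list used. The dKO list had 1 of 15 peaks of its own (12.9% of all), site 14 at 5.01. These comparisons share lists with those of the drug, so their ratios at a site are not independent of one another.

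NCOR1 itself was found in control liver at 15 sites in vehicle and 17 in dexamethasone. Its strongest site was site 25, at 38.3 in vehicle and 33.0 in dexamethasone, followed by site 17 (51595722 to 51595922), 28.1 kb upstream of the RefSeq start, at 27.8 and 21.1. Sites 13 (22.5 and 15.7), 8 (20.0 and 14.4), 9 (16.9 and 13.7), 15 (15.5 and 12.9) and 16 (15.5 and 14.8) flanked the RefSeq start or lay inside the gene. All 12 matched sites had a ratio of dexamethasone over vehicle under 1, from 0.529 (0.293 to 0.921) at site 26 to 0.983 (0.565 to 1.69) at site 18.

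The median NCOR1 ratio was 0.782 at the locus and 0.804 (log2 -0.31) over all matched peaks, so the locus followed the lists. Called lower were 2 of 12 (32.0% of all), at sites 26 and 6, and relative to the median 1 of 12 (15.9% of all); higher were 0 (6.24% of all). The vehicle list rests on 1 library and 17.8 M tags, the dexamethasone list on 2 libraries and 36.9 M. At sites 6, 9, 16 and 17, where GR was called higher after the drug in control liver, NCOR1 had ratios of 0.597, 0.811, 0.955 and 0.759.

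NCOR1 peaks called in dexamethasone and not in vehicle numbered 5 of 17 (29.6% of all), at sites 10, 21, 30, 32 and 33, with 10.6, 4.47, 5.69, 7.59 and 6.37. At 4 of these 5 (all but site 10) GR too was called after the drug and not in vehicle. The same share over all NCOR1 peaks of this kind was not computed, so the count is a description only. At site 10 the NCOR1 peak centre lay 1 bp from that of GR. In vehicle the nearest NCOR1 peak, site 11 (8.16), was centred 238 bp away and began 39 bp beyond the end of the GR peak of control dexamethasone. Vehicle peaks without a dexamethasone peak were 3 of 15 (32.8% of all), at sites 1 (21.4), 11 and 28 (7.31). Site 1 (51426417 to 51426617) lay 27.7 kb beyond the 3′ end and had no GR peak in any list.

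In vehicle, 8 of 16 GR peaks overlapped an NCOR1 peak (50.0%; 54.3% of all control vehicle GR peaks). In dexamethasone 15 of 28 did (53.6%; 48.9% of all). Seen from NCOR1, 8 of 15 vehicle peaks (53.3%; 41.3% of all) and 15 of 17 dexamethasone peaks (88.2%; 53.0% of all) overlapped GR. These peaks share 1 locus and pooled lists, so the shares are a description. The 2 dexamethasone NCOR1 peaks without GR were those of site 17, where they missed each other by 14 bp, and site 18.

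In the dKO vehicle list, with the NCOR1 antibody, the locus had 0 of 17282 peaks, which allows a share of up to 0.0174%. All 15 control vehicle peaks were therefore missing there, against 79.5% of all control vehicle NCOR1 peaks. Likewise 0 of 17 control dexamethasone peaks overlapped a dKO peak, where 22.4% of all did. Of 273 other genes with bodies of 400 to 900 kb, 114 had 0 peaks in that list too.

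Other genes of the PGC-1α pathway were read at their strongest control dexamethasone GR site within 50 kb. Some of these sites lay inside the gene body, as at Tat and Ppargc1b. Many lay outside it, as at Nrip1 (44.3 kb), Pdk4 (40.0 kb) and Fbp1 (39.3 kb), so their assignment is by distance only. All 34 had such a site, as did 79.4% of all protein-coding genes, and 29 had a matching vehicle peak. Of these 29, 13 were called higher after the drug and 1 lower, and 5 more of the 34 had no vehicle peak. Over all protein-coding genes, 33.3% of those matched were higher and 12.5% lower, and 22.1% of those with a site had no vehicle peak. The median ratio was 1.37 for the 29 and 1.17 for all genes, against 2.72 at Ppargc1a. Each site was picked for its count after the drug, the numerator of the ratio, so the choice favours higher ratios. It does so more where a gene has many peaks, and Ppargc1a had 28. All 14 matched sites of Ppargc1a together had a median of 1.11, so 2.72 does not set the locus apart. Cell type markers were read the same way. Medians were 1.35 for hepatocyte (3 of 8 matched higher), 1.91 for endothelial (3 of 3) and 0.95 for neuronal genes (0 of 2). The 1 matched Kupffer cell gene, Clec4f, was called lower at 0.462 (0.303 to 0.698). The part of cell composition in these ratios was not tested.

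Within the family, Ppargc1b, the paralogue that drives lipogenic and mitochondrial genes, had 59.9 (vehicle) and 117.1 (dexamethasone) in control liver and 27.3 and 53.7 in dKO liver, so the drug ratio was 1.95 (1.62 to 2.36) in control and 1.97 in dKO. The third member, Pprc1, had 40.4, 49.5, 13.2 and 21.0, a control ratio of 1.23 (0.954 to 1.58). Of 6 inducers of Ppargc1a transcription 5 were matched and 1 was higher: Nr3c1, the GR gene itself, at 1.73 (1.33 to 2.28). Crtc2, the CREB coactivator, had 11.3 in control dexamethasone and no control vehicle peak there. In dKO the same site had 7.22 in vehicle and no peak in dexamethasone. Creb1 had 12.9 and 11.3 in control vehicle and dexamethasone.

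Of 8 partner factors 7 were matched, with 2 higher and 1 lower. The nuclear receptor genes Pparg and Esrra were at 3.36 (2.40 to 4.77) and 2.51 (1.79 to 3.54), and Nrf1, a regulator of mitochondrial genes, at 0.354 (0.213 to 0.566), from 23.5 to 8.33, with no NCOR1 peak at the site. Hnf4a, through which PGC-1α acts on gluconeogenic promoters, had 354.9 in control vehicle and 341.2 in control dexamethasone, and 110.9 and 201.5 in dKO.

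Of 6 modifiers and inhibitors 4 were matched and 3 were higher: Prkaa2, an AMPK subunit, at 2.02 (1.62 to 2.51), Nrip1, the corepressor RIP140, at 1.56 (1.12 to 2.24), and Sirt1, the deacetylase of PGC-1α, at 1.55 (0.999 to 2.51). Gluconeogenic and fasting targets were all matched and higher at 5 of 7, with a median ratio of 1.85. Their control ratios were 5.20 (3.33 to 8.51) for Fbp1, fructose bisphosphatase, 4.41 (3.42 to 5.81) for the pyruvate dehydrogenase kinase Pdk4, 2.08 (1.85 to 2.36) for Tat, tyrosine aminotransferase, 1.85 (1.26 to 2.75) for the fasting hormone Fgf21 and 1.64 (1.31 to 2.08) for G6pc, glucose-6-phosphatase. Of 5 mitochondrial targets 4 were matched and 1 was higher, Ucp2, at 2.38 (1.87 to 3.04). The drug ratio of 4.02 at site 10 in dKO stood beside 4.06 for Tat and 3.42 for Pdk4. The other gluconeogenic and fasting targets had lower dKO ratios, at 1.70 (Pck1), 1.64 (Fbp1), 1.62 (Fgf21) and 1.41 (Cpt1a). The G6pc site had no dKO vehicle peak and so no dKO ratio.

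**Figure D5:**
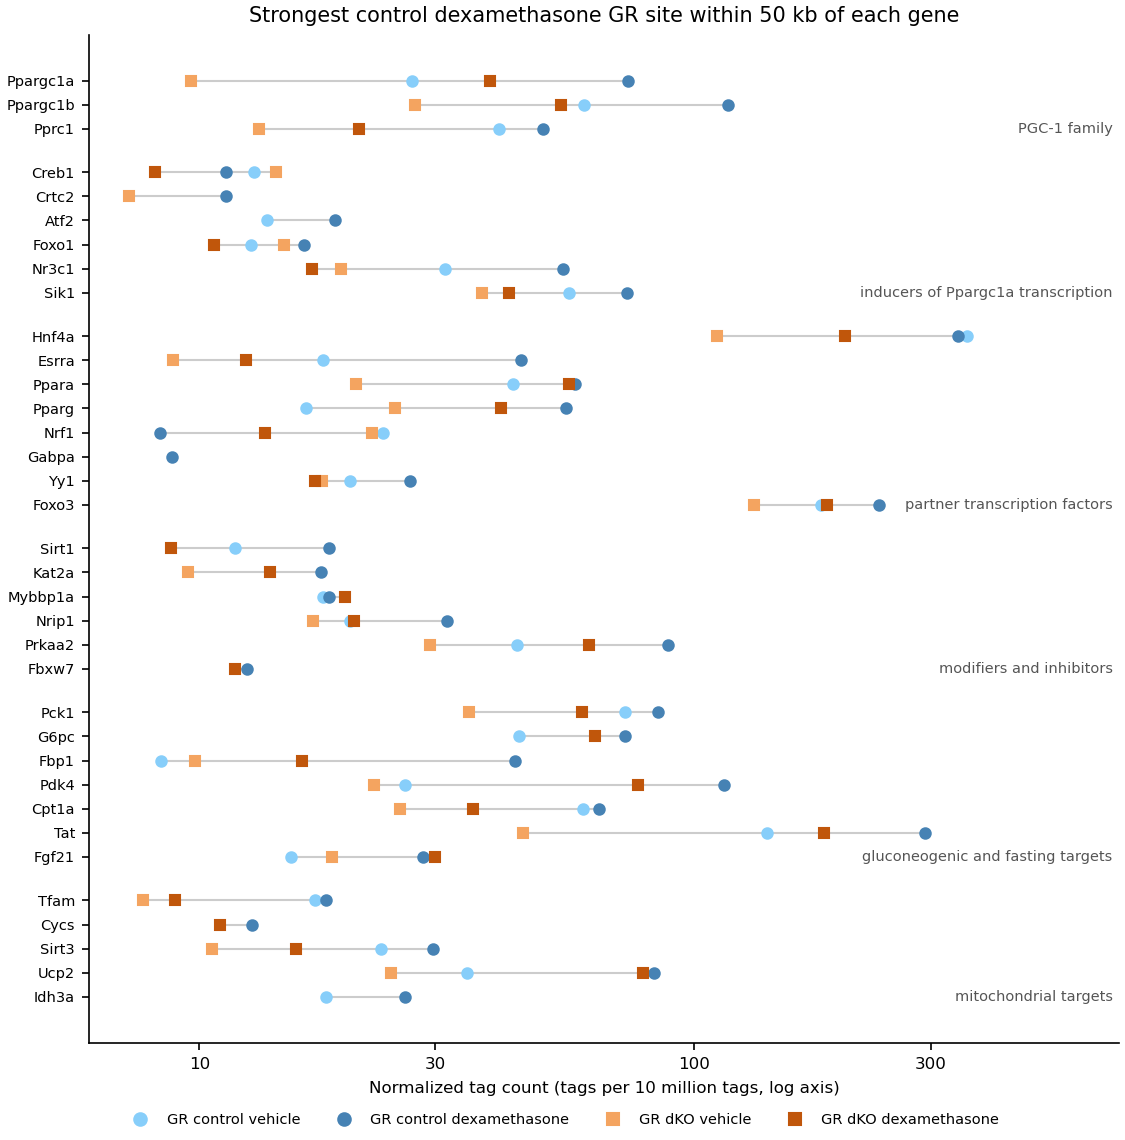
Normalized tag count (log axis) of the strongest control dexamethasone GR site within 50 kb of each pathway gene, in the 4 GR lists; a missing point means no peak called. At Ppargc1a the 4 lists ran from 9.63 in dKO vehicle to 73.3 in control dexamethasone.

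The genes whose GR profile was most like that of Ppargc1a were Mob3b, C1s1, F11, Hps5 and Mta1. Likeness was the Euclidean distance between log2 summed tag counts of GR peaks in the 4 GR lists, each gene centred on its own mean, among 1224 genes with at least 10 control dexamethasone peaks. The distances were 0.09, 0.10, 0.10, 0.10 and 0.12, against a median of 0.67. At Ppargc1a the summed count was 225 (vehicle) and 444 (dexamethasone) in control liver and 117 and 158 in dKO liver. Those sums rest on 3.20, 5.60, 2.00 and 3 kb of called peaks with mean counts of 14.1, 15.9, 11.7 and 10.5, so most of their spread is in how many peaks were called.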

How the data were processed

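ChIP-seq of GR and NCOR1 was analysed from 7 peak lists, which stand for 12 libraries; 1 input library served as the authors' control. Trim Galore 0.6.4, BWA 0.7.17, HOMER 4.11, bedtools 2.29.2 and mm10 come from the submitters' processing notes. Peaks of 200 bp were called by HOMER findPeaks on pooled libraries, at 4-fold and p-values of at most 1e-04 over input and over the local 10 kb, at least 400 bp apart, per the file headers. The tag threshold was 15 for GR, and for NCOR1 it was set by a false discovery rate of 0.001 at 11, 16 and 12 tags (control vehicle, control dexamethasone, dKO vehicle), per the file headers. GR libraries were made without and NCOR1 libraries with size selection, per the labels' protocols. The deposited level is a signal, the normalized tag count (tags scaled to 10 M per list), with at most 1 tag considered per bp per the file headers. The headers name the GR tag directories, and not those of NCOR1, as of high sonication. The deposited fold over input is a ratio, used for a stricter threshold, and the fold over local describes peaks; the deposited p-value against input and the findPeaks score were not used.

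Lists were matched by overlap of at least 1 bp, taking the largest overlap, in Python 3.11.15 with SciPy 1.17.1. Tags were taken as the normalized count times the list's total over 10 M, and ratios carry exact conditional binomial intervals. Matching and intervals were tested on simulated data. No molecular identifiers are named in the sources used here, so intervals and the 3-count floor cover counting error only. Alternatives were other overlaps, at least 8-fold over input, ratios divided by the median ratio, lists of equal length, the gene body alone, a 2-fold call and, added after seeing the data, a split by the vehicle NCOR1 list alone. Named were the 6 strongest sites of each list, those nearest the RefSeq start, and the largest and smallest ratios; the other sites were named after their values were seen. Pathway genes named were the PGC-1 family and those called at 1.5-fold, with Crtc2, Creb1 and Hnf4a added after values were seen. Members and lists were chosen with earlier results of these data known. A gene table of GRCm38.p6 gave gene bodies; no genome sequence was used here, so peak sequences are not shown.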

Additional observations from a re-analysis of the deposited data

How the results depend on the processing

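Replicates were pooled before peak calling, so no replicate could be left out. No paired analysis was possible because each list pools the libraries of its group. Of 199 values under alternatives, 161 stayed within 1.5 times the main count or within counting error and 38 did not. The only median past 1.5-fold, the log2 of -0.78 for GR in dKO against control under dexamethasone, kept its sign. In control the median log2 drug ratio of GR, 0.15, was 0.46 with centres within 400 bp (where vehicle-only peaks numbered 1) and with lists of equal length, and -0.17, of the opposite sign, at 8-fold over input and in the gene body alone; no direction is given for it. At 8-fold over input, vehicle-only peaks were 0 in control and 1 in dKO, dexamethasone-only peaks 3 in dKO, control-only peaks 3 in vehicle, dKO-only peaks 0 in dexamethasone, NCOR1 peaks of dexamethasone alone 3 and of vehicle alone 1, and GR peaks with NCOR1 4 in vehicle and 8 in dexamethasone. With lists of equal length, dexamethasone-only peaks in dKO were 4, dKO-only vehicle peaks 3, control-only dexamethasone peaks 7 and NCOR1 control-only peaks 5. In the body alone, dexamethasone-only peaks were 8 in control and 4 in dKO, and for NCOR1 3. Relative to the median ratio, the drug in control gave 4 sites higher and 5 lower, dKO against control in dexamethasone gave 4 sites lower, 1 higher and a median log2 of -0.36, and NCOR1 gave 1 lower and -0.04. At 2-fold, sites called lower were 1 and 0 for the drug in control and dKO, 1 and 4 for dKO in vehicle and dexamethasone, and 0 for NCOR1. Matched GR sites rest on as few as 17 tags in a list, and the intervals of several ratios near 1.5 include 1. Splitting GR sites by the NCOR1 list of control vehicle alone, an alternative chosen after seeing the data, moved 7 of 16 counts. Sites 10, 21, 32 and 33, whose NCOR1 peak was in the dexamethasone list only, were among those that changed class.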
